A study of Mus musculus with 20 samples.

Results

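Alb, Apoa1, Apoa2, Fabp1, Gh, Prl, Pomc and Pcp2 are 8 genes whose main sites of expression lie outside the hippocampus, namely the liver for the first 4, the pituitary for Gh, Prl and Pomc and the cerebellum for Pcp2. They were chosen from measured values, because they read far higher on some of the 20 hippocampal arrays of the study than on the rest, and they are 8 of the 18193 genes that have a probe set listed with 1 gene symbol. Where a gene has several probe sets, the one with the highest mean over the 20 arrays stands for it. Their levels and the differences between groups are therefore given as a description, with no test. What the choice did not use was their home tissue in full, that is the other genes of liver, pituitary and cerebellum, although those lists were drawn up with earlier results of these data known.

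RNA came from the whole hippocampus of male mice congenic on C57BL/6J, with 1 array per mouse and 4 mice in each of 5 groups. WT_Y (mice WT_Y-369, WT_Y-371, WT_Y-373 and WT_Y-374) were young wild-type mice of 6 months. WT_AU (WT_AU-126, WT_AU-23, WT_AU-26 and WT_AU-57) and WT_AI (WT_AI-14, WT_AI-21, WT_AI-49 and WT_AI-51) were aged wild-type mice of 24 months with spatial memory unimpaired or impaired in the Y-maze, and WT_A joins them (n = 8). KO_Y (KO_Y-575, KO_Y-578, KO_Y-580 and KO_Y-585) and KO_A (KO_A-41, KO_A-42, KO_A-222 and KO_A-223) were Hsd11b1-/- mice of 6 and 24 months, which lack 11β-HSD1, the enzyme that regenerates active corticosterone within cells, in every tissue that makes it, liver included. Hsd11b1 itself read 549.6 to 804.2 in the wild-type mice and 39.5 to 65.2 in the Hsd11b1-/- mice. Values are mean chip intensities after normalisation, and intensities of different probe sets are not set against each other as amounts of RNA.

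Hepatocytes secrete most plasma proteins, among them albumin and the apolipoproteins of high-density lipoprotein, and they hold the fatty acid binding protein Fabp1, which the small intestine also makes. In the anterior pituitary, somatotrophs make growth hormone, lactotrophs make prolactin and corticotrophs make pro-opiomelanocortin, the precursor of adrenocorticotrophic hormone, which arcuate neurones of the hypothalamus also make. Purkinje cells of the cerebellar cortex express Pcp2, a modulator of G protein signalling, and the granule cells beside them express the GABA-A receptor subunit Gabra6.

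The stretch just before the start site of each of these genes is where tissue-specific factors bind, and 3 are shown for the liver and pituitary genes in which a core motif was found. Each holds the 150 bases before the start (RefSeq, GRCm38.p6), on the strand of the gene, with motif matches in capitals. Those of Alb (chr5:90460720-90460869, plus strand) and Fabp1 (chr6:71199729-71199878, plus strand) hold GTTAAT, the core of the element of hepatocyte nuclear factor 1, and that of Prl (chr13:27057420-27057569, plus strand) holds ATGNATAA, the element of the pituitary factor Pit-1.
Alb: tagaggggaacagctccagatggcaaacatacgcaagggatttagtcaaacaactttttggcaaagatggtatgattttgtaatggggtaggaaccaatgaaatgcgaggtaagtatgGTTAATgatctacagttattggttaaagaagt
Fabp1: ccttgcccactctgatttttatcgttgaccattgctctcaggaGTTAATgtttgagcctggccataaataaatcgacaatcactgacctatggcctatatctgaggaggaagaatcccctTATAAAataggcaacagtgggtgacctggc
Prl: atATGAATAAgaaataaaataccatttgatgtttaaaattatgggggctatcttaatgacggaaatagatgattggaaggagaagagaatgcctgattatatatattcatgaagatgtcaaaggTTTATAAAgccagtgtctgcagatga
Both strands were searched over 250 bases before the start of the 7 genes that matched the RefSeq promoter table, at the first listed start where a gene has several. GTTAAT began at -32 in Alb and at -107 in Fabp1 and is present in 6.43% of the 32851 promoters of that table. ATGNATAA began at -148 in Prl and is present in 2.68%. The TATA box TATAAA, present in 12.4%, began at -30 in Fabp1, at -25 in Pomc, at -212 in Apoa2 and at -24 in Prl, where an overlapping match on the other strand begins at -26. The windows of Apoa1 and Pcp2 held none of the 3 motifs. A match is a description of the sequence and not a measured binding site.

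Marker genes of hippocampal neurones gave values above the filter. Of 15 such genes, among them Prox1 of dentate granule cells, Bcl11b and Neurod6, all 15 passed the filter on low values (100 or more in at least 2 arrays). None was 4 times its median on any array. Neither result identifies a tissue, since 10 of 12 measured genes of a choroid plexus list and 6 of 9 of a thalamic list passed the filter too. The mean deviation of the 15 markers from the 20-array mean ran from -0.47 on the array of mouse WT_Y-374 to 0.32 on that of mouse WT_Y-373 on the log2 scale. Of the 15 markers, 10 had their lowest value on the array of mouse WT_Y-374, and 3 on that of mouse KO_A-42. Neurod1, which cerebellar granule cells express too, went the other way and was highest in mouse WT_Y-374, at 1313.0 against a median of 633.9. The number of arrays limits the precision, and in bulk tissue fewer cells of a type and less RNA per cell cannot be told apart.

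Alb, the most abundant plasma protein, read 1670.4, 117.0, 32.9 and 2911.9 in the 4 WT_Y mice in the order given above. It read 34.1, 39.2, 37.9 and 170.4 in WT_AU and 40.6, 38.5, 31.6 and 447.7 in WT_AI. In the Hsd11b1-/- mice it read 63.4, 747.2, 115.8 and 115.2 in KO_Y and 37.5, 889.3, 37.5 and 88.8 in KO_A. The highest array thus lay 92.1-fold above the lowest, and 5 mice stood apart, namely WT_Y-374, WT_Y-369, KO_A-42, KO_Y-578 and WT_AI-51, at 447.7 to 2911.9 against 31.6 to 170.4 in the other mice. These 5 mice belong to 4 of the groups, so that the groups overlapped.

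Apoa1, the main protein of high-density lipoprotein, read 349.3, 24.7, 17.8 and 395.1 in WT_Y. It read 24.4, 20.4, 17.0 and 34.4 in WT_AU, 21.7, 17.0, 17.7 and 63.6 in WT_AI, 32.0, 158.9, 37.6 and 31.9 in KO_Y and 22.7, 112.0, 25.3 and 29.0 in KO_A. The same 5 mice were the highest, and all 4 probe sets of Apoa1 had their highest value in WT_Y-374 and the next in WT_Y-369. Apoa2, the second protein of those particles, read 416.2, 52.8, 35.4 and 681.7 in WT_Y. It read 46.0, 43.2, 45.8 and 60.0 in WT_AU, 41.6, 39.0, 34.6 and 175.6 in WT_AI, 56.3, 306.3, 78.2 and 74.6 in KO_Y and 36.5, 199.6, 49.7 and 66.2 in KO_A. Apoa2 was again highest in those 5 mice. Fabp1, the fatty acid carrier of hepatocytes, read 300.9, 14.2, 8.2 and 594.2 in WT_Y. It read 9.4, 9.8, 7.3 and 14.3 in WT_AU, 9.6, 9.0, 8.3 and 82.2 in WT_AI, 16.4, 179.3, 32.4 and 30.3 in KO_Y and 8.8, 124.9, 10.8 and 14.9 in KO_A. The same 5 mice led for Fabp1, and its 2 probe sets gave the same first and second mouse. For the 4 liver genes, then, the mice ranked WT_Y-374 first and WT_Y-369 second, with KO_Y-578 and KO_A-42 in either order behind them and WT_AI-51 next.

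**Figure D1:**
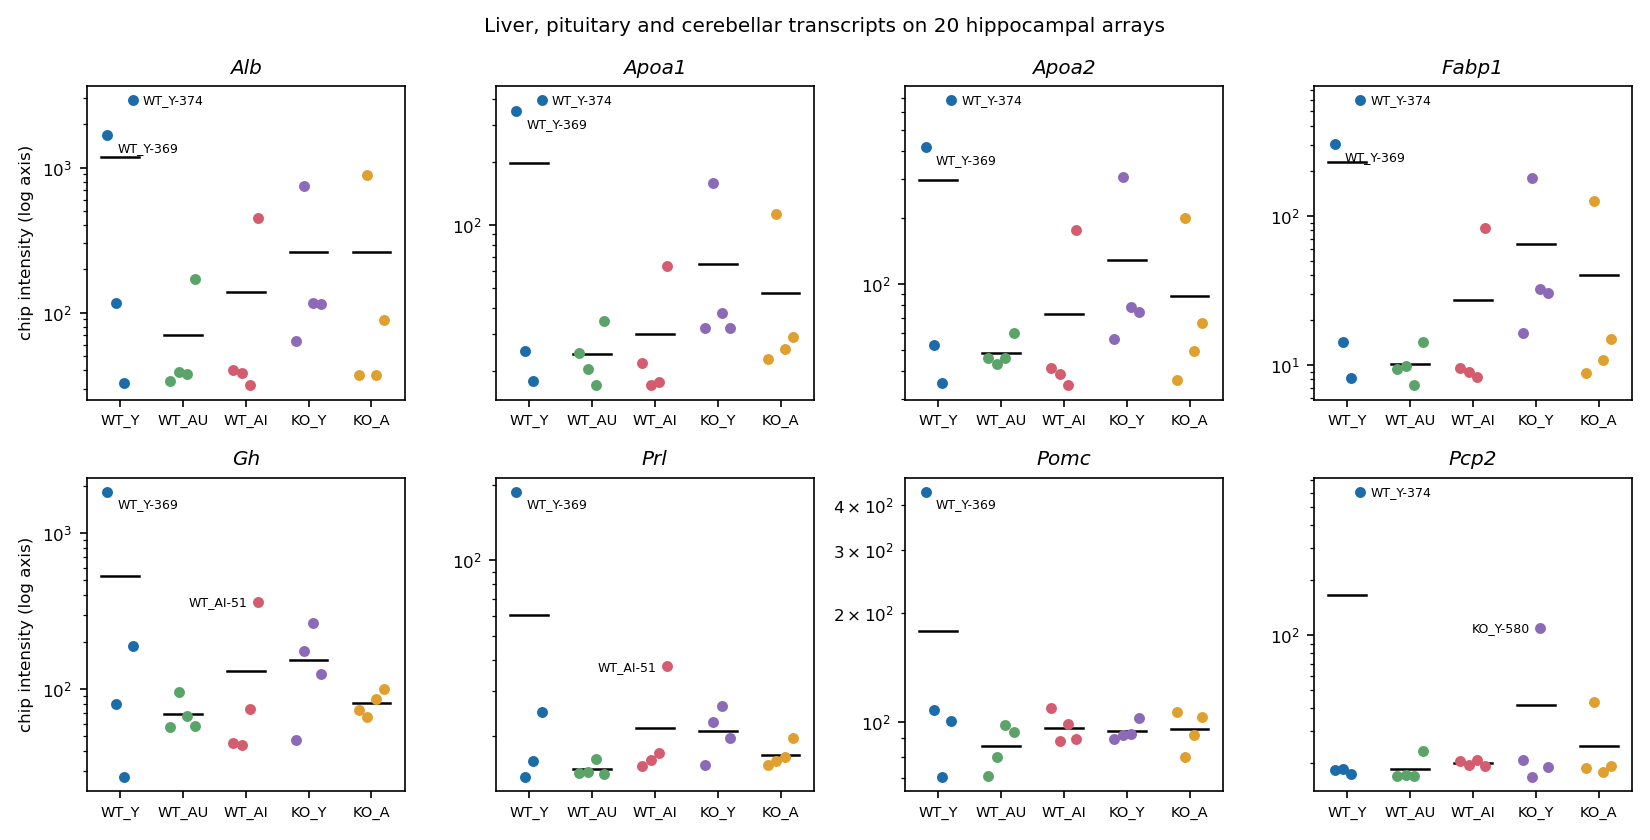
Intensity of each gene (log axis) in the 20 mice by group, 4 points per group, with a black line at the group mean and the highest mice labelled. The liver genes read high in WT_Y-374 and WT_Y-369 and in 1 mouse each of WT_AI, KO_Y and KO_A, Gh, Prl and Pomc are highest in WT_Y-369, and Pcp2 is highest in WT_Y-374 at 606.5.

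A probe set was counted as high on an array where it read 100 or more and at least 4 times its median over the 20 arrays. In WT_Y-369, 7 of the 8 genes were high, all but Pcp2, while 0.0733% of all 45037 probe sets were (33). In WT_Y-374, 5 were high (the liver genes and Pcp2), against 0.102% of all probe sets (46). In KO_Y-578 the 4 liver genes were high, against 0.0289% of all probe sets (13). In KO_A-42 these were Alb, Apoa1 and Fabp1, also against 0.0289% (13). In WT_AI-51 they were Alb and Gh, against 0.0111% (5), and in KO_Y-580 Pcp2 alone, against 0.00888% (4). Since the genes were chosen on these values, the shares are given for scale and nothing is read from them. Just outside the limits, Apoa2 in KO_A-42 read 199.6, 3.66 times its median, and Fabp1 in WT_AI-51 read 82.2. Gh in KO_Y-580 read 267.9, 3.46 times its median, and further probe sets of Gh, at 237.6 and 242.8, were high there. Apoa1 in KO_A-42, at 4.13 times its median, lay just inside. On each of the other 14 arrays none of the 8 genes and 0 to 4 probe sets were high.

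Other liver genes were high on the same arrays. The liver list holds 70 genes, none of them among the 8, of which 59 were measured, 19 reached 100 on some array and 14 were high on at least 1. All 14 were high in WT_Y-374. In WT_Y-369 8 were high, namely Apoc3, Bhmt, Cyp2e1, Cyp3a11, Fgg, Hpx, Serpina1b and Serpina1c, and in WT_Y-374 Ambp, Arg1, Fga, Hpd, Mup3 and Serpinc1 joined them. KO_Y-578 and KO_A-42 had the same 3 high, Cyp3a11, Serpina1b and Serpina1c. Cyp3a11, a cytochrome P450 of drug and steroid metabolism, read 717.2 in WT_Y-374 and 556.3 in WT_Y-369 against a median of 18.8. Serpina1c, an alpha-1 antitrypsin gene, read 1038.2 and 564.6 against a median of 39.0, but its probe sets may share sequence with Serpina1b, a near-identical copy, and the split between them is uncertain. Hpx, which carries haem in plasma, read 203.9 and 180.6 against 37.1, and the fibrinogen chain gene Fgg 137.6 and 115.4 against 13.0.

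The summed intensity of the 59 measured liver genes ran from 1401.3 in WT_Y-373 to 6919.4 in WT_Y-374 within WT_Y. It ran from 1596.2 to 1775.5 in WT_AU, from 1526.9 to 2328.0 in WT_AI (highest in WT_AI-51), from 1632.9 to 3182.0 in KO_Y (highest in KO_Y-578) and from 1564.5 to 2819.4 in KO_A (highest in KO_A-42). The mice that led for Alb led for the whole list within each group. The remaining 40 measured liver genes stayed under 100 on every array, and 28 of them (70.0%) had their highest value in WT_Y-374. No probe set read 0, since the normalisation gives every probe set a positive value.

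How far the liver genes kept their proportions from mouse to mouse was described on a common reference. For the 4 genes and the 14 list genes that were high, the intensity above the 20-array median was set against that in WT_Y-374. In WT_Y-369 it was 34.6% to 87.6%, with a median of 63.5%, and Alb stood at 56.2%, Apoa2 at 57.7%, Fabp1 at 49.4% and Apoa1 at 87.6%. In KO_Y-578 it was 12.2% to 43.8%, with a median of 27.9%. In KO_A-42 the median was 17.3% (5.80% to 49.9%) and in WT_AI-51 10.4% (2.01% to 19.3%). The range within a mouse was thus several-fold, and the ranges of neighbouring mice overlapped. In KO_Y-580 the median was 2.56% and some genes lay below their 20-array median.

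**Figure D2:**
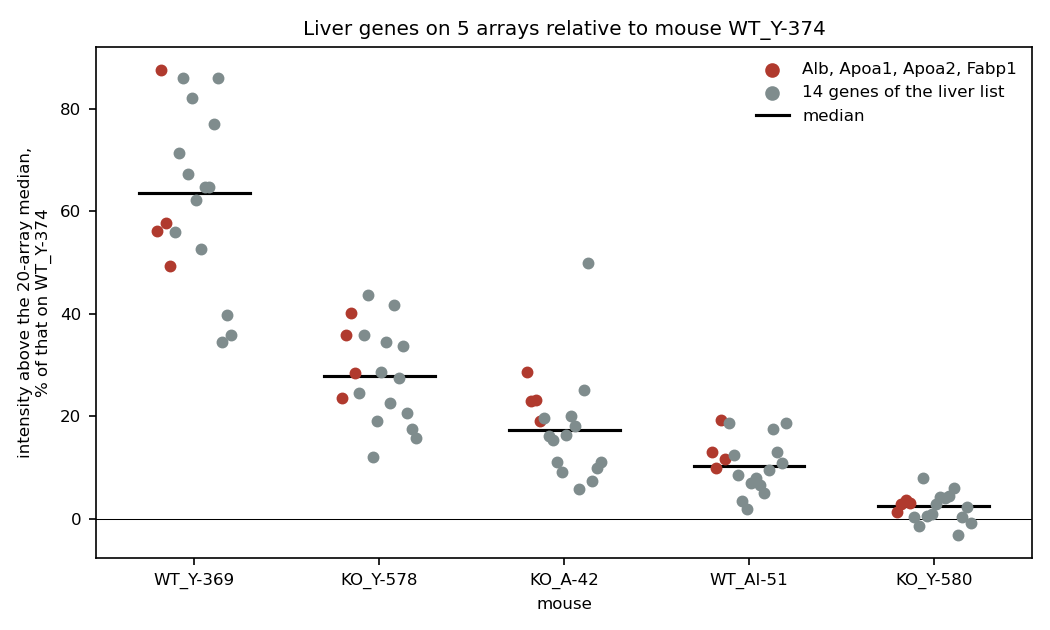
Intensity above the 20-array median as a percentage of that in mouse WT_Y-374, for 18 liver genes (red, Alb, Apoa1, Apoa2 and Fabp1, grey, 14 genes of the liver list) in 5 other mice, with a line at the median. The medians fall from 63.5% in WT_Y-369 over 27.9%, 17.3% and 10.4% to 2.56% in KO_Y-580, and the points of neighbouring mice overlap.

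Gh, the growth hormone gene, read 1843.9, 80.1, 27.5 and 189.0 in WT_Y. It read 57.2, 96.7, 67.7 and 58.2 in WT_AU and 45.6, 43.9, 74.6 and 362.2 in WT_AI. It read 47.6, 176.9, 267.9 and 125.7 in KO_Y and 73.6, 66.1, 86.8 and 100.4 in KO_A. WT_Y-369 lay 5.09-fold above the next mouse, WT_AI-51, with KO_Y-580 next after it. All 4 probe sets of Gh were highest in WT_Y-369, at 1207.0 to 1843.9, and next in WT_AI-51.

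Prl, the prolactin gene, read 187.2, 13.7, 15.9 and 24.9 in WT_Y. It read 14.2, 14.3, 16.2 and 14 in WT_AU, 15.1, 16.0, 17.1 and 37.7 in WT_AI, 15.3, 22.6, 26.3 and 19.6 in KO_Y and 15.2, 15.9, 16.4 and 19.5 in KO_A. Apart from WT_Y-369 no mouse reached 100, so that Prl did not pass the filter, unlike the other 7 genes, and the next highest were WT_AI-51 and KO_Y-580, as for Gh. Pomc read 435.0, 107.6, 70.4 and 100.8 in WT_Y. It read 70.7, 79.7, 98.1 and 93.5 in WT_AU, 109.0, 88.5, 98.4 and 89.6 in WT_AI, 89.4, 92.2, 92.5 and 102.6 in KO_Y and 106.8, 79.9, 91.9 and 103.1 in KO_A. Here WT_Y-369 alone stood out, with the other mice between 70.4 and 109.0, and the second probe set of Pomc gave 244.9 in WT_Y-369.

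The pituitary list holds 26 further genes, of which 22 were measured, 5 reached 100 and 1 was high. That gene was Cga, the alpha subunit shared by thyrotrophin and the gonadotrophins, which read 119.3 in WT_Y-369 and 48.2 in WT_AI-51 against a median of 26.3. Tshb, the beta subunit of thyrotrophin, was highest in WT_Y-369 at 34.6. Lhb and Fshb, those of the gonadotrophins, read 24.4 and 9.9 there, within the range of the other arrays. The other list genes that reached 100, namely Chga, Scg2, Crhr1 and Trhr, read highest in other mice. The summed list ran from 2244.4 to 3096.0 over the WT_Y mice, and WT_Y-369 was neither end. A sum of intensities gives most weight to the brightest genes of a list, so it says little on the dim ones. Relative to WT_Y-369, the intensity above the median of Gh, Prl, Pomc and Cga had a median of 14.4% in WT_AI-51, where it ran from -0.99% for Pomc to 23.6%.

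The pituitary and liver genes did not always read high in the same mice. In part they did. WT_Y-369 and WT_AI-51, among the highest for Alb, ranked 1 and 2 of 20 for Gh and for Prl. WT_Y-374, with the highest Alb, ranked 4 for both, at 189.0 for Gh and 24.9 for Prl, and KO_Y-578 ranked 5 for both. By contrast, KO_A-42, next after the 2 young mice for Alb, read 66.1 for Gh, below its median of 77.4. KO_Y-580, among the 3 highest for Gh, read 115.8 for Alb, and ranked 6 for Apoa1, Apoa2 and Fabp1.

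Pcp2 read 18.3, 18.6, 17.5 and 606.5 in WT_Y. It read 17.0, 17.3, 17.1 and 23.4 in WT_AU, 20.7, 19.6, 21 and 19.3 in WT_AI, 20.8, 16.9, 110.1 and 19.2 in KO_Y and 18.8, 43.1, 17.9 and 19.4 in KO_A. WT_Y-374 thus lay far above the rest, KO_Y-580 came next at 110.1 and KO_A-42 after it at 43.1. A further probe set of Pcp2 had the same first and second mouse, and the last read 13.5 to 17.8 on all arrays, with no mouse apart.

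Of 29 cerebellar genes listed beside Pcp2, 26 were measured, 11 reached 100 and 4 were high, all in WT_Y-374. Gabra6 read 1045.3 there against a median of 14.6, a 71.6-fold ratio and the highest of any probe set with 1 symbol on that array. Cbln3, a cerebellin of granule cells, read 885.8 against 19.6. Car8, a carbonic anhydrase-related protein of Purkinje cells, read 1106.5 against 65.9, and Cbln1, the cerebellin that bridges granule cell and Purkinje cell synapses, 843.0 against 132.9. Genes of both cell types were therefore high in the mouse with the highest Pcp2. The summed list was 11004.3 in WT_Y-374, and its highest value in any other group was 5814.0, in KO_A-42.

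KO_Y-580 and KO_A-42 differed in which cerebellar genes went with Pcp2. In KO_Y-580 Car8 read 143.4, and Cbln1 173.4 against its median of 132.9, while Cbln3 at 21.9 and Gabra6 at 14.8 lay near their medians. Cbln1 also read 233.1 in KO_Y-578, where Pcp2 read 16.9. In KO_A-42 Car8 read 130.7, Cbln1 249.0, Cbln3 59.5 and Gabra6 44.6, each above its median, although none reached the limit for high. Zic1, a transcription factor of granule cells that is also expressed in meninges, read 1777.5 in WT_Y-374 and 1667.1 in KO_A-42, and 1122.4 in WT_Y-369, where Pcp2 and Gabra6 read 18.3 and 11.1. A dimmer probe set of Zic1 was high in KO_A-42, at 801.1 against a median of 144.9.

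**Figure D3:**
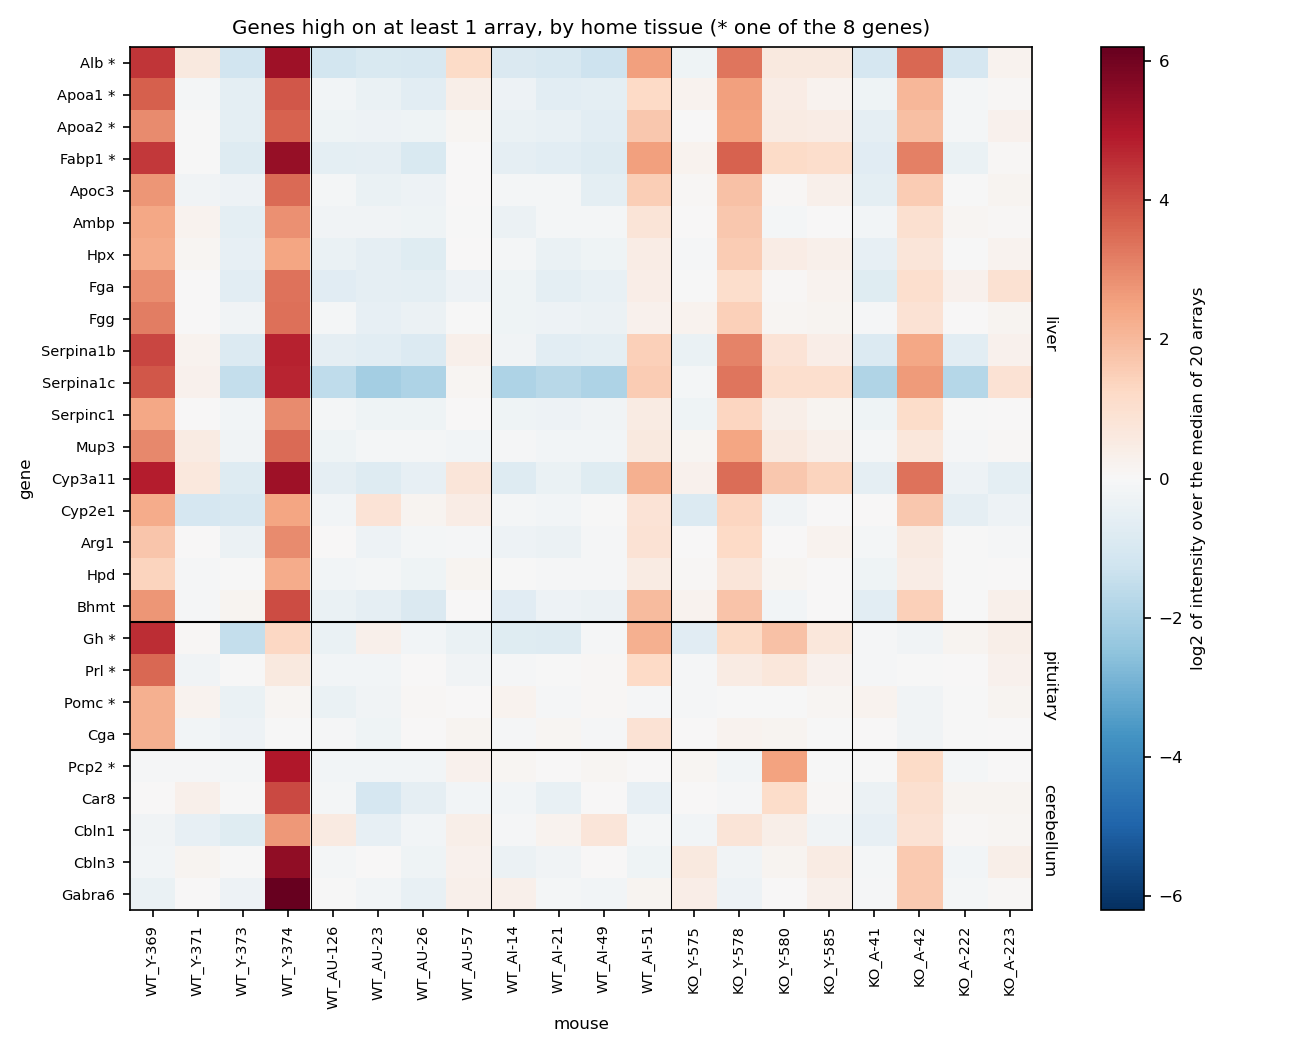
Log2 of intensity over the 20-array median (colour, red above and blue below) for the 8 genes (asterisks) and the 19 list genes that were high on at least 1 array, by home tissue (rows) and mouse (columns). Liver genes are red together in WT_Y-369, WT_Y-374, KO_Y-578, KO_A-42 and WT_AI-51, pituitary genes in WT_Y-369, and cerebellar genes in WT_Y-374, where Gabra6 is 71.6-fold above its median.

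Across the 20 arrays, with the mice as points and 2 to 5 of them far above the others, the 6 pairs among the 4 liver genes had Pearson correlations of 0.96 to 0.99 on the log2 scale and Spearman correlations of 0.87 to 0.96. Without WT_Y-369 and WT_Y-374 the Pearson correlations were 0.94 to 0.98. Gh and Prl correlated at 0.91, and at 0.84 without these mice. Those of Pomc rested on WT_Y-369. Without that mouse alone, Gh with Pomc went from 0.75 to 0.26 and Prl with Pomc from 0.86 to 0.12. Alb with Gh stood at 0.68 and 0.54, and Pcp2 with the other 7 genes at -0.04 to 0.57. These are descriptions with no test, since the genes were chosen for these arrays and all points share them.

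Among 15980 probe sets with 1 symbol that reached 100, the 5 most like each gene came largely from its home tissue. Those of Alb were Serpina1b (0.986), Car3, Fabp1, Cyp3a11 and Apoa2, and those of Fabp1 were Apoa2 (0.992), Serpina1b, Cyp3a11, Car3 and Apoa1. Those of Apoa1 were Serpina1b (0.986), Fabp1, Apoa2, Serpinc1 and Apoc3, and those of Apoa2 were Fabp1 (0.992), Serpina1b, Apoc3, Apoa1 and Car3. Gh was followed by Prl (0.915), Cga (0.846), Plg (0.822), Pomc and Hpx, and Prl by Cga (0.950), Gh, Pomc, Plg and Bad. Pomc had Cga (0.866), Prl and Gh before Zscan21 and Rabif. Pcp2 was followed by Car8 (0.949), Gabra6 (0.886), Cbln3 (0.884), Cbln1 (0.854) and Grm4 (0.843). Bad, Zscan21 and Rabif are not pituitary genes, and Plg and Hpx are liver genes. Apart from Gh, Prl and Pomc themselves, Cga was thus the only pituitary gene among their nearest. The correlations of Pomc with Gh and Prl rested on WT_Y-369, as given above.

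Few probe sets outside the 8 genes and the liver, pituitary and cerebellum lists were high on the same arrays. The 8 genes were chosen for such values and the lists were drawn up with earlier results known, so these shares are given for scale only. Of the high probe sets with 1 symbol, 25 of 27 in WT_Y-369 and 34 of 38 in WT_Y-374 belonged to these genes or lists. The others were Apoc1 and Car3 in WT_Y-369, and Acaa1b, Adh1, Apoc1 and Car3 in WT_Y-374. Car3, a carbonic anhydrase of liver, muscle and fat, read 717.3 in WT_Y-374, 331.2 in WT_Y-369, 190.8 in KO_Y-578, 182.2 in KO_A-42 and 104.9 in WT_AI-51, the order of Apoa1, Apoa2 and Fabp1. In KO_Y-578 8 of 9 belonged, with Car3 the exception, and in KO_A-42 8 of 11, with Car3, Clec7a and Klk6. In WT_AI-51 5 of 5 and in KO_Y-580 3 of 3 belonged, the latter being probe sets of Pcp2 and Gh.

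Lists for other tissues had no gene high on any array, namely intestine (14 genes measured), pancreas (13), kidney (9), skeletal muscle (11), adipose tissue (6), blood (4), hypothalamus (14), pineal and retina (8), striatum (7), choroid plexus (12) and leptomeninges (11). A gene bright on most arrays can hardly reach 4 times its own median, so this says little for such genes. Ttr, made by liver and choroid plexus, had a median of 18837.1 and a maximum 1.16 times that, although its lowest value was 1142.8. In several of these lists most genes stayed under 100 on every array, with 1 of the intestine list, 1 of the skeletal muscle list and 0 of the adipose list reaching it. By contrast, 11 of the 12 choroid plexus genes, 9 of the 11 leptomeningeal genes and 5 of the 7 striatal genes reached 100. Among genes that liver and brain both make, 11 were measured and 1 was high, Apoc1, at 389.3 in WT_Y-374 and 252.4 in WT_Y-369 against a median of 60.4. Of 9 thalamic genes 2 were high, Tcf7l2 and Tnnt1, both in KO_A-222, in which none of the 8 genes was high. Of 13 genes that respond to these hormones, such as Igf1 and Socs2, none was high on any array.

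The choroid plexus list, although not high by this rule, had its highest mean deviation in WT_Y-374, at 1.53 on the log2 scale, followed by WT_Y-369 at 1.25 and WT_Y-373 at 1.16. WT_Y-373 had the lowest mean of the liver list, at -0.43, while that of WT_Y-374 was 1.49 and that of WT_Y-369 was 1.12. In KO_Y-580, among the 3 highest for Gh and for Pcp2, the choroid plexus list was lowest, at -2.05. The part of the choroid plexus in the liver, pituitary and cerebellar values was not tested.

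The spread within groups was wide. Since the genes were chosen for values far apart between arrays, the ranks below are given for scale only. Alb had a within-group SD of 2.05 on the log2 scale, the rank of 4 from the widest among the 16995 probe sets that passed the filter, whose median SD was 0.12. Fabp1 followed at 1.88 (rank 7), Gh at 1.41 (26), Apoa1 at 1.36 (30), Pcp2 at 1.30 (33), Apoa2 at 1.27 (35) and Pomc at 0.54 (131).

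Group means followed from single mice. Alb averaged 1183 ± 688 (SEM, n = 4) in WT_Y and 105.0 ± 51.7 (SEM, n = 8) in WT_A, with 260.4 ± 163 in KO_Y and 263 ± 209 in KO_A (n = 4 each). Gh averaged 535 ± 438 in WT_Y, 101 ± 37.8 in WT_A, 155 ± 46.2 in KO_Y and 81.7 ± 7.55 in KO_A. Pcp2 averaged 165 ± 147 in WT_Y and 19.4 ± 0.80 in WT_A. In all of these WT_Y was the highest group and had the widest error.

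On the log2 scale, all 8 genes read lower in WT_A than in WT_Y, by -2.60 for Alb, -2.44 for Fabp1, -1.86 for Apoa1, -1.54 for Apoa2, -1.17 for Pcp2, -1.12 for Gh, -0.90 for Prl and -0.58 for Pomc. Without WT_Y-369 and WT_Y-374, which leaves 2 mice in WT_Y, the difference of Alb was -0.03 and those of the other 7 turned positive, from 0.05 for Pomc to 0.71 for Gh. Leaving out WT_Y-374 alone turned that of Pcp2 to 0.09, and leaving out WT_Y-369 alone turned that of Gh to 0.04. KO_Y lay below WT_Y for all 8, from -0.36 for Gh to -1.22 for Alb, and above it for all 8 without the 2 mice, from 0.11 for Pomc to 1.93 for Fabp1. These comparisons share the WT_Y mice. The lower values in WT_A and KO_Y with all mice thus rested on 2 mice of the control group. These 2 mice include the highest for each gene, while the high mice of other groups stayed in, such as KO_Y-578 (Alb 747.2) and KO_Y-580 (Gh 267.9). A move upward was therefore built in, and nothing is read from the signs without the 2 mice.

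**Figure D4:**
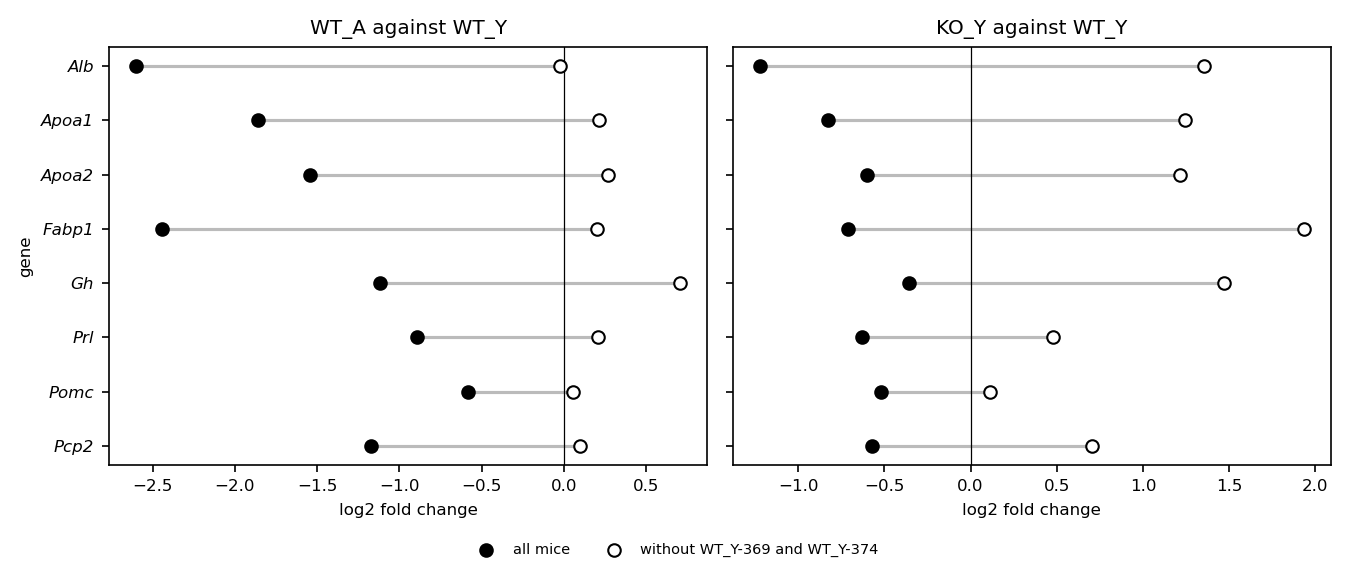
Log2 fold change of the 8 genes in WT_A against WT_Y (left) and KO_Y against WT_Y (right) with all mice (filled) and without WT_Y-369 and WT_Y-374 (open), a vertical line marking 0. For KO_Y all 8 open points lie to the right of 0 and all 8 filled points to the left. The high mice KO_Y-578 and KO_Y-580 are kept in both sets of points, so a move to the right was built in.

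In the comparisons that did not use WT_Y, KO_A against KO_Y ran from -1.01 for Fabp1 to 0.01 for Pomc, KO_A against WT_A from -0.03 for Prl to 0.75 for Alb, and WT_AI against WT_AU from 0.12 for Pcp2 to 0.65 for Fabp1. Each lay within the within-group SD of its gene, and several signs rested on 1 mouse. Without KO_A-42 the difference of Alb in KO_A against WT_A went from 0.75 to -0.29 and that of Fabp1 from 0.72 to -0.15. Without WT_AI-51 the difference of Alb in WT_AI against WT_AU went from 0.34 to -0.56 and that of Fabp1 from 0.65 to -0.15. Without KO_Y-578 that of Alb in KO_A against KO_Y went from -0.63 to 0.12.

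In limma across all 16995 probe sets kept, with Benjamini-Hochberg adjustment, the share called at an adjusted p under 0.05 was 0.594% in WT_A against WT_Y (101 probe sets), 2.41% in KO_A against KO_Y (410), 0.129% in KO_Y against WT_Y (22) and 0.0294% in KO_A against WT_A (5). It was 0% in WT_AI against WT_AU, where 150 had an unadjusted p under 0.05. Some of these counts rested on single mice. Without KO_A-41, 2628 were called in KO_A against KO_Y and 1413 in KO_A against WT_A, and without KO_A-222 98 and 2. With array weights they were 3708 and 2181, and with only the compared groups in the fit 14 and 1.

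Of the 12 liver list genes kept, limma called 0 in each comparison. In WT_A against WT_Y, 9 had an unadjusted p under 0.05 (7.1% of all probe sets did). This count fell to 4 without WT_Y-369, to 1 without WT_Y-374 and to 2 without both. Of the 12, 5 would not have passed the filter without these 2 mice, namely Apoc3, Apoh, Bhmt, Fgg and Hpx. Higher values in WT_Y were thus built into their choice, and all 5 are among the 9. Nothing is therefore read from the counts in the comparisons with WT_Y, and no direction or median of the list is given for them. Under a filter of 100 or more in at least 4 arrays, which drops these 5, 4 of 7 had an unadjusted p under 0.05 in WT_A against WT_Y. In KO_Y against WT_Y, 0 had an unadjusted p under 0.05 (3.71% of all probe sets did), and 6 without WT_Y-373. In KO_A against KO_Y 3 of 12 did, against 20.9% of all probe sets, and in KO_A against WT_A 2 of 12, against 14.8%. In WT_AI against WT_AU 0 of 12 did, against 0.883%.

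Of the 9 cerebellar list genes kept, each of which passed the filter without WT_Y-369 and WT_Y-374 too, limma called 0 in each comparison. In WT_A against WT_Y all 9 lay below 0, with a median of -0.24 against -0.006 over all probe sets tested, and Car8 stood at -1.47 (adjusted p = 0.468). An unadjusted p under 0.05 was found for 5 of them, and for 2 without WT_Y-374 and 1 without WT_Y-369 and WT_Y-374. In KO_Y against WT_Y, which uses the same WT_Y mice, all 9 lay below 0, with a median of -0.17 against -0.003. There 2 had an unadjusted p under 0.05. The mean deviation of the 26 measured genes was 1.17 in WT_Y-374, against -0.04 in WT_Y-369, 0.07 in WT_Y-371 and -0.15 in WT_Y-373. The direction without WT_Y-374 is not given. In KO_A against WT_A 7 of 9 lay above 0, with a median of 0.16 against 0.03, and 1 had an unadjusted p under 0.05. In KO_A against KO_Y and WT_AI against WT_AU the medians were 0.02 and 0.04, with 1 and 0 genes at an unadjusted p under 0.05. Of the 4 pituitary list genes kept, none of which was high in WT_Y-369, limma also called 0, with medians between -0.10 and 0.06 and 0 to 1 genes at an unadjusted p under 0.05.

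The choroid plexus list varied widely between mice of the same group. Its summed intensity over 12 genes ran from 9121.4 to 25793.7 in WT_Y and from 1493.2 to 22634.0 in KO_Y. Most of the sum was Ttr, which alone ran from 8464.7 to 21917.7 in WT_Y and from 1142.8 to 19716.1 in KO_Y. The sum ran from 7062.5 to 23415.7 in KO_A and from 4422.8 to 23391.7 in WT_AI, and the groups overlapped. All 10 genes of the list kept lay below 0 in WT_A against WT_Y (median -1.04, against -0.006 over all probe sets tested). They lay below 0 in KO_Y against WT_Y too (-1.25 against -0.003). All 10 lay above 0 in KO_A against KO_Y (0.98 against 0.02) and in KO_A against WT_A (0.65 against 0.03). These comparisons share groups of mice. Of these 10, limma called 0 in each comparison, with 0 to 1 at an unadjusted p under 0.05. The part of the choroid plexus in the differences of the liver and cerebellar genes was not tested.

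Of the genes that liver and brain both make, limma called Apoe higher in KO_A than in KO_Y, and Hsd11b1 lower in KO_Y than in WT_Y and in KO_A than in WT_A, of 11 tested. Hsd11b1 is itself a liver gene. In WT_Y-369 it read 804.2, the highest of the 20 mice, and in WT_Y-374 684.4, within the range of the wild-type mice. In KO_Y-578 and KO_A-42, where the liver genes were high, it read 60.6 and 45.7.

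Without WT_Y-369 and WT_Y-374, limma called 41 probe sets in WT_A against WT_Y in place of 101, and 35 were called in both fits. Without WT_Y-369 alone it called 84 and without WT_Y-374 alone 72. Leaving out WT_Y-371 alone gave 54 and WT_Y-373 alone 59, so the fall was not particular to WT_Y-369 and WT_Y-374. For KO_Y against WT_Y, limma without WT_Y-369 and WT_Y-374 called 18 in place of 22, with 16 in both fits. Both fits without the 2 mice rest on 2 WT_Y mice, so that fewer samples alone can lower a count.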

How the data were processed

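Hippocampal RNA of 20 mice was measured with Affymetrix arrays of the type Mouse Genome 430 2.0, 1 per mouse. Per the methods and the submitters' processing notes, the authors used the affy package in R 2.8.0 to compute the robust multichip average over all arrays, and they deposited linear intensity values of 45037 probe sets. The normalisation equalises the distribution of intensities between arrays (medians 39.4 to 41.3) and hides a change shared by all transcripts.

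Gene symbols came from the platform annotation, in which 34945 probe sets list 1 symbol, 932 several and 9160 none. Only those with 1 were named, with the brightest probe set on average standing for its gene. Probe sets with the suffix x_at or a_at can match related transcripts. Probe sets at 100 or more in at least 2 of 20 arrays (16995) were tested on log2 values with limma 3.58.1 in R 4.3.3, with the 5 groups and 1 estimate of the spread, two-sided, with Benjamini-Hochberg adjustment, WT_A being the mean of the WT_AU and WT_AI coefficients. The script was tested on simulated data. Python 3.11.15 was used for tables and figures. Promoter sequences came from RefSeq (GRCm38.p6).

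The 8 genes, the 18 gene lists, the rules and the tests were chosen with earlier results of these data known. The text names the 8 genes, the 10 highest ratios on each array with 1 of them high, the 5 genes most like each, the list genes that were high or called, 4 of each list and Hsd11b1, of which not all are printed. The other list genes named (Plg, Tshb, Lhb and Fshb among them) were chosen after their values were seen. Alternatives were other filters, scaling, array weights, fits of the compared groups alone, other limits for high, averaging the probe sets per gene, and omitting mice.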

Additional observations from a re-analysis of the deposited data

Results flagged for a closer look

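Within groups of 4 mice, the highest value lay far from the other 3 in 12 of 40 groups examined (8 genes in 5 groups), by the gap to the nearest mouse divided by the range on the log2 scale above Dixon's 95% critical value. Both ends of each group were examined, for which chance gives about 1 in 20 groups, and all 12 flags were of the highest value. The 40 groups are not independent, since the genes share the mice. Since the genes were chosen for such values, the ratios are a description and not a test.

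The ratio was 0.913 for Alb in WT_AU-57 (170.4) and 0.905 in WT_AI-51 (447.7). It was 0.898 for Apoa1 in KO_Y-578 (158.9) and 0.847 in KO_A-42 (112.0). Apoa2 gave 0.887 and Fabp1 0.937, both in WT_AI-51. Prl gave 0.864 in WT_AI-51 (37.7) and 0.855 in WT_AU-26, where it read only 16.2. Pcp2 gave 0.983 in WT_Y-374 (606.5), 0.945 in WT_AU-57 (23.4), 0.889 in KO_Y-580 (110.1) and 0.908 in KO_A-42 (43.1). In WT_Y the liver genes gave no such value, since 2 of the 4 mice read high.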

How the results depend on the processing

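Of the counts of called list genes, 393 stayed as reported and 12 moved. In the liver list, the count of 0 became 0 to 1 on leaving out single mice in WT_A against WT_Y (Fgg without WT_Y-373). In KO_A against KO_Y it became 3 with array weights (Fah, Itih3 and Ttpa), 1 with centred arrays (Itih3) and 0 to 3 on leaving out single mice (Itih3 without WT_Y-371 or without WT_Y-373, and Fah, Itih3 and Ttpa without KO_A-41). In KO_A against WT_A it became 2 with array weights (Itih3 and Ttpa) and 0 to 2 without single mice (the same 2 genes without KO_A-41). In the cerebellum list it became 1 with array weights in WT_A against WT_Y and in KO_Y against WT_Y (Zic1), and 0 to 1 without single mice in KO_A against KO_Y and KO_A against WT_A (Zic1 and Calb1, without KO_A-41). The pituitary list moved under none of these. With a limit of 2 times the median, 2 of the 8 genes were high in KO_Y-580. With 8 times, 2 were high in KO_Y-578 and 0 in WT_AI-51 and in KO_Y-580. With a floor of 200, 2 were high in KO_Y-578, 0 in KO_Y-580 and 1 in KO_A-42. Of the 8 genes' fold changes, 447 moved by less than 1 SD and 18 by more, and leaving out WT_Y-369 and WT_Y-374 together turned the sign of 7 in WT_A against WT_Y and of 8 in KO_Y against WT_Y. The causes were not tested. No paired analysis was possible because the groups share no mouse numbers. The number of arrays limits what a single mouse can show, and whether the low values lay above background was not tested.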

Other observations

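KO_A-222 had none of the 8 genes high but had the highest mean of the thalamic list, 1.32 on the log2 scale. Tcf7l2, a transcription factor of thalamic neurones, read 399.1 there against a median of 67.5, and Tnnt1, a troponin that thalamic neurones express, 268.1 against 36.2. Slc17a6, the vesicular glutamate transporter of the thalamus, read 569.4 against a median of 270.5.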
